A study of Mus musculus with 8 samples.

Results

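The genes described here encode the ligands, receptors and Smad proteins of transforming growth factor beta (TGF-beta) and bone morphogenetic protein (BMP) signalling, measured in injured mouse kidney. They are the rows of the deposited gene table whose Ensembl identifier belongs to a protein-coding gene with a symbol of the families Tgfb1 to Tgfb3, Tgfbr1 to Tgfbr3, Bmp, Bmpr, Gdf, Inhb, Smad or Acvr. There are 47 of them among 34450 genes; Bmp10 and Gdf2 were not analysed here. The 28 that reached 0.5 FPKM on average over the libraries were tested. FPKM is the number of fragments relative to transcript length and to library size, so levels of different genes can be compared with each other.

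All 8 libraries were made from injured kidneys of C57BL/6J mice aged 8 weeks, taken on day 3 after renal blood flow had been stopped and restored (ischaemia-reperfusion injury, IRI). In the 4 hypoxia libraries (1 to 4) the mice had been kept in low oxygen before the injury, and in the 4 normoxia libraries (5 to 8) the injury followed normal oxygen. The comparison addresses what hypoxic preconditioning changed in the injured kidney, and no uninjured kidney was analysed here. Nothing in the labels ties each library to a separate animal, so the p-values measure only the spread between libraries, which may be technical.

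TGF-beta and its relatives are secreted dimers that bind a type II receptor kinase, which activates a type I receptor kinase, which in turn phosphorylates receptor-regulated Smad proteins. TGF-beta and activins act mainly through Smad2 and Smad3, and BMPs mainly through Smad1, Smad5 and Smad9. Both branches use Smad4 as a partner and are restrained by Smad6 and Smad7. In the kidney, TGF-beta is known for driving matrix production and fibrosis after injury, and Bmp7 for nephron development and for opposing that response.

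The depth, estimated from the spacing of the smallest values, was roughly 8410000 to 14600000 fragments per library, of which 1710000 to 8810000 fell in nuclear protein-coding genes. Protein-coding genes took 20.3% to 60.3% of the fragments and ribosomal transcripts 13.5% to 72.5%. The library least like the rest was normoxia library 5, whose Spearman correlations averaged 0.633, where those of the remaining 7 averaged 0.767 to 0.832. The hypoxia libraries lay in pairs, 1 with 2 and 3 with 4. Markers of the proximal tubule were detected in every library, with a summed level of 815 to 1750 FPKM after hypoxia and 176 to 1910 FPKM after normoxia, and none of the 12 was listed at 0 throughout. In whole kidney, fewer cells of a type and less RNA per cell cannot be told apart.

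No member passed the test between the groups in the values as deposited. Of the 28 tested, 0 were higher and 0 lower at an adjusted p under 0.05 in limma, where 0.907% of all 14444 tested genes passed. At an unadjusted p under 0.05 in limma, 3 members were lower and 0 higher, against 6.84% and 2.52% of all tested genes. These 3 were Tgfb1, Bmp1 and Tgfb3. The median log2 change of the 28 members was -0.32, with 10 positive and 18 negative, beside a median of -0.14 over all tested genes. Of all 14444 tested genes, 5629 had positive and 8815 negative changes. The changes ran from -2.11 (Tgfb1) to 0.60 (Acvr1b) on the log2 scale.

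**Figure D1:**
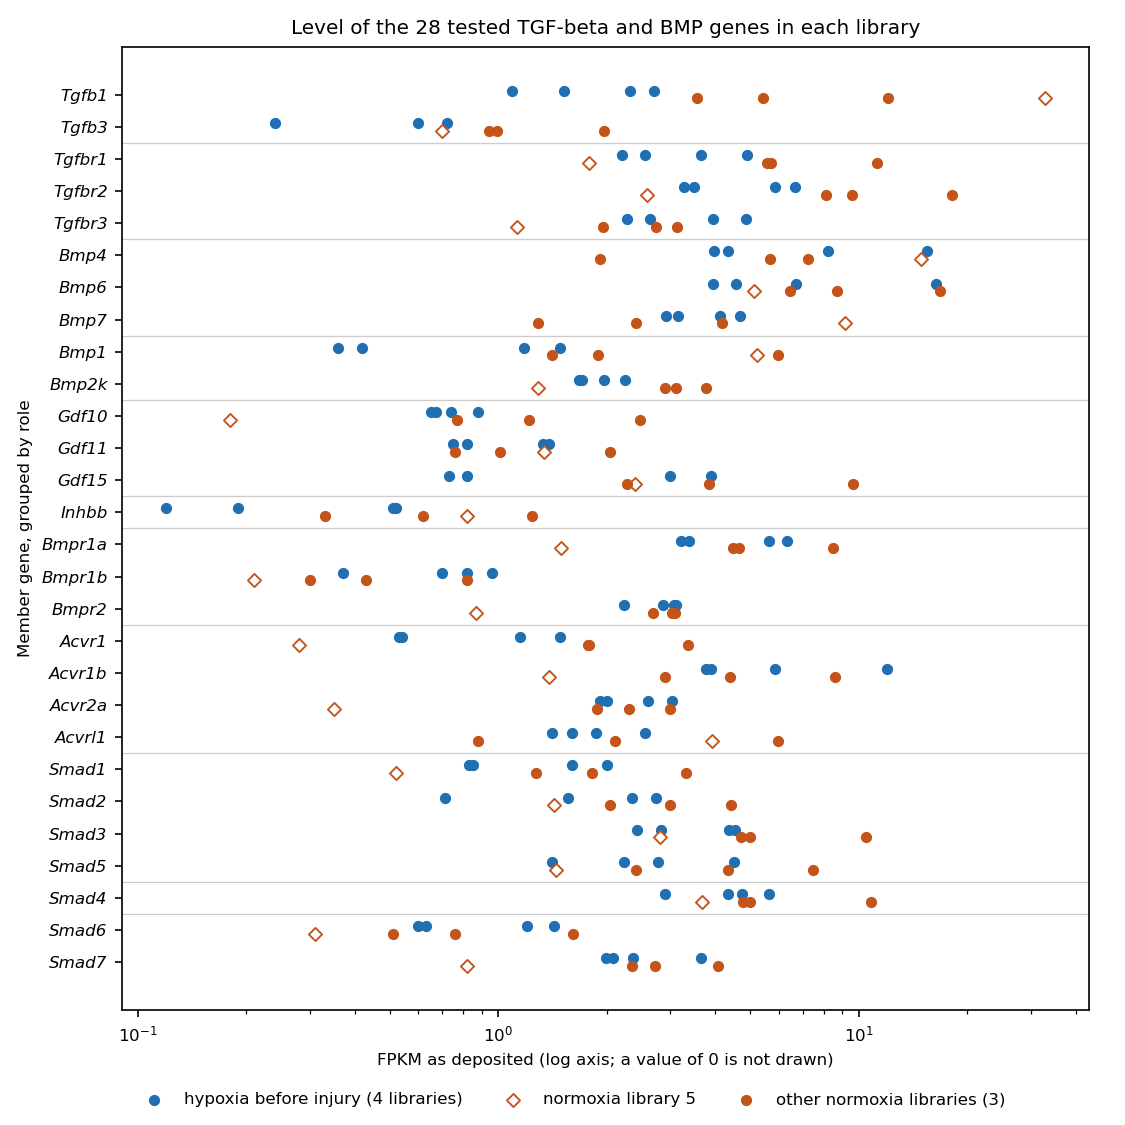
FPKM as deposited (log axis) of the 28 tested members, one row per gene and one point per library, with hypoxia libraries in blue, normoxia libraries in orange and normoxia library 5 as an open diamond. Tgfb1 is the 1 member whose groups do not overlap, and normoxia library 5 is the lowest of the 8 libraries for 14 members.

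Tgfb1, the main TGF-beta ligand in the injured kidney, was the member with the widest gap between the groups. It was at 2.70, 2.32, 1.52 and 1.09 FPKM in hypoxia libraries 1 to 4 and at 32.87, 5.43, 12.02 and 3.56 FPKM in normoxia libraries 5 to 8. Every hypoxia library was below every normoxia library, and normoxia library 5 was far above the rest. The groups failed to overlap, hypoxia lower, in 1 of the 28 members and in 3.06% of all tested genes. The group means were 1.91 ± 0.734 and 13.5 ± 13.4 FPKM (SD, n = 4 each). The log2 change was -2.11 ± 0.62 (SE) and did not pass in limma (adjusted p = 0.112). It passed without normoxia library 8 (adjusted p = 0.0262 in limma), then the 1 member that was lower beside 1.56% of all tested genes, and over all single libraries left out the adjusted p ran from 0.0262 to 0.379. Its lowest value rests on about 48 fragments and its highest on about 2262.

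The level of Tgfb1 can be set beside the protein-coding share of each library. Hypoxia libraries 3 and 4, with 20.3% and 21.5% of fragments in protein-coding genes, held 1.52 and 1.09 FPKM, and normoxia library 8, with 21.5%, held 3.56 FPKM. Hypoxia library 2, with 56.7%, held 2.32 FPKM, and normoxia libraries 5 and 7, with 56.8% and 60.3%, held 32.87 and 12.02 FPKM. Because the groups do not overlap, any such pairing has the normoxia library higher, so these values do not bear on the part of library composition. After scaling to protein-coding fragments, a setting chosen after seeing the data, Tgfb1 passed (log2 change -1.95, adjusted p = 0.0447 in limma) as 1 of 2 members that were lower, where 1.58% of all tested genes were. It also passed with quantile normalization (adjusted p = 0.0292), again with 2 members lower beside 2.42% of all tested genes. It did not pass with TMM scaling (log2 change -1.92, adjusted p = 0.123 in limma), which equalises libraries on a trimmed mean of gene ratios and under which 0 of 28 members and 2.37% of all tested genes passed; at an unadjusted p under 0.05, limma put 4 members lower (7.8% of all tested genes) and 1 higher (8.4%).

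The other 2 TGF-beta ligands were less abundant. Tgfb3, which shares its receptors with Tgfb1, was at 0.60, 0.72, 0 and 0.24 FPKM in hypoxia libraries 1 to 4 and at 0.70, 0.94, 1.97 and 0.99 FPKM in normoxia libraries 5 to 8. The groups touched only at hypoxia library 2 and normoxia library 5, and the log2 change of -0.92 ± 0.42 (SE) did not pass (adjusted p = 0.479 in limma). Tgfb2 had a mean of 0.266 FPKM and was not tested. Annotated genes on the opposite strand, among them Ttll5, overlap Tgfb3, and whether the counting used strand is not given in the sources used here.

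**Figure D2:**
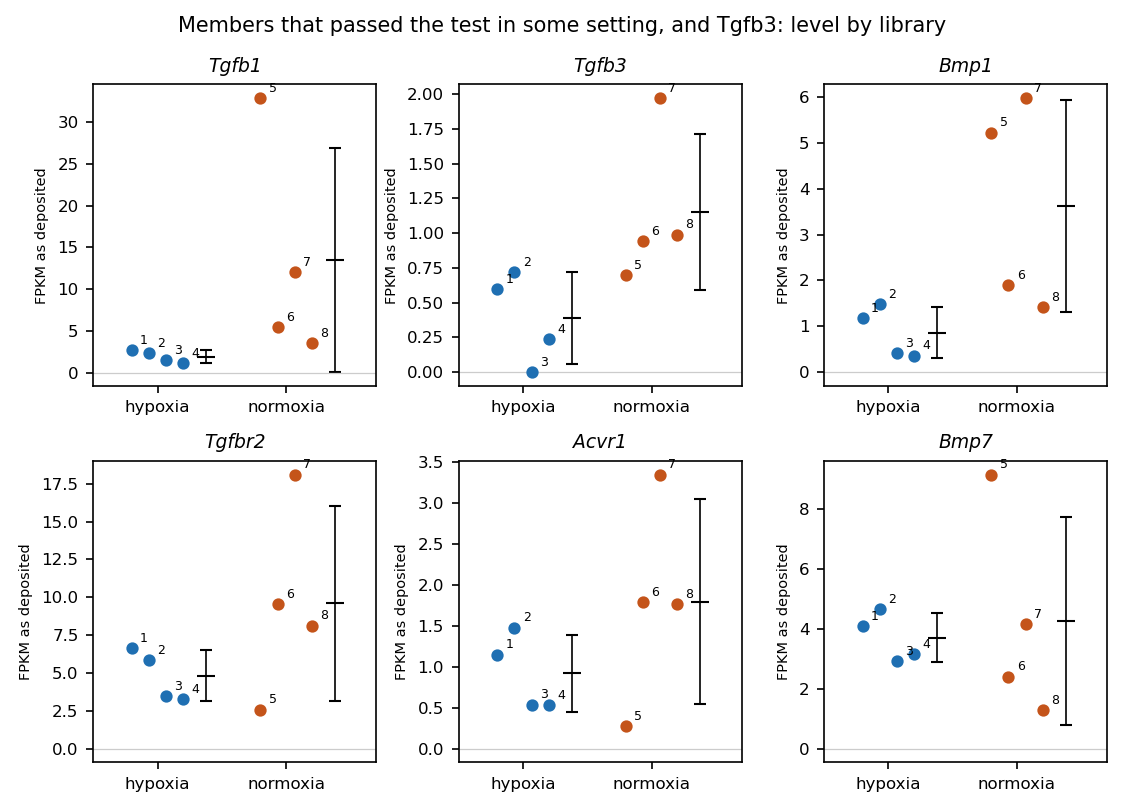
FPKM as deposited of Tgfb1, Tgfb3, Bmp1, Tgfbr2, Acvr1 and Bmp7, one numbered point per library, with the group mean and SD as a bar beside the points. Normoxia library 5 is the highest of all libraries for Tgfb1 and Bmp7 and the lowest for Tgfbr2 and Acvr1.

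The promoter windows of the 6 members whose share of ligand, receptor or Smad transcripts did not overlap between the groups, as described further on, are printed here. They were chosen after the values and motif matches were seen. Each is the 250 bases before a RefSeq start on build GRCm38.p6, read 5′ to 3′ on the strand of the gene, and Bmpr1b has 3 starts, of which the windows of starts 2 and 3 overlap. The windows are chr7:25686752-25687001 on the plus strand for Tgfb1, chr14:46390670-46390919 on the minus strand for Bmp4, chr15:101173822-101174071 on the plus strand for Acvr1b, chr3:141982265-141982514 on the minus strand for Bmpr1b start 1, chr3:141931589-141931838 on the minus strand for Bmpr1b start 2, chr3:141931421-141931670 on the minus strand for Bmpr1b start 3, chr2:48813859-48814108 on the plus strand for Acvr2a and chr9:64022060-64022309 on the minus strand for Smad6. Capitals mark matches to the motifs searched.
Tgfb1: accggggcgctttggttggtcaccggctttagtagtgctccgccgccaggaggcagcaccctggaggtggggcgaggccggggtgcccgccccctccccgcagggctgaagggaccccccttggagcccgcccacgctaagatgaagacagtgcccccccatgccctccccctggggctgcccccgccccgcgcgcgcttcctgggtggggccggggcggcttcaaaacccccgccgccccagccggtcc
Bmp4: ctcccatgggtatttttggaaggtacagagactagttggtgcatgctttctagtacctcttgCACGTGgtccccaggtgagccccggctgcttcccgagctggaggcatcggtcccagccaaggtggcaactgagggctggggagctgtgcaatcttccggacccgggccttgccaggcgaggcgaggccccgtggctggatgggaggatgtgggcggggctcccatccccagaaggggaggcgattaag
Acvr1b: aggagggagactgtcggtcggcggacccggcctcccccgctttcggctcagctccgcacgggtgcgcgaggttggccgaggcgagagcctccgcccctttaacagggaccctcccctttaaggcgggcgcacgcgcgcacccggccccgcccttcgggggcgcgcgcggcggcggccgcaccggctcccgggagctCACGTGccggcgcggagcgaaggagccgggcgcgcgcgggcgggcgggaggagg
Bmpr1b start 1: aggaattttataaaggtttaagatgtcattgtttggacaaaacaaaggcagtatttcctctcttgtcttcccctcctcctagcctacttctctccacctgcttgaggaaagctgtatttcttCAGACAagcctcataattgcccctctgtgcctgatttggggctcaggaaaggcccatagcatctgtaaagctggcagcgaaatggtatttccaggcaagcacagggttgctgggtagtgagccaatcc
Bmpr1b start 2: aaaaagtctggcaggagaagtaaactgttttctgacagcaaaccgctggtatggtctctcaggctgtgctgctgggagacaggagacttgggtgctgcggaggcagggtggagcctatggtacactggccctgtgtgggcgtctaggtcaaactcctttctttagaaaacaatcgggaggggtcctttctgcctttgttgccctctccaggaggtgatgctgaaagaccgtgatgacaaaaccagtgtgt
Bmpr1b start 3: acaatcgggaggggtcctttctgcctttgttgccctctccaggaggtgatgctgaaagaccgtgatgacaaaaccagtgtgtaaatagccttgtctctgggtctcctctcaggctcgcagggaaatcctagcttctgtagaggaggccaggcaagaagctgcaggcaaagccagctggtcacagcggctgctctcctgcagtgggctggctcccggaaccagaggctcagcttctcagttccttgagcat
Acvr2a: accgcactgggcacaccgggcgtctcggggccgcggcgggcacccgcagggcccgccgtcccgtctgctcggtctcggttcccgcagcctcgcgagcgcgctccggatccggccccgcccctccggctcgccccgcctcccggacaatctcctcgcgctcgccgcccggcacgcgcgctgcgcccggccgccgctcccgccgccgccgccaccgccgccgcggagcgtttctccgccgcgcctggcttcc
Smad6: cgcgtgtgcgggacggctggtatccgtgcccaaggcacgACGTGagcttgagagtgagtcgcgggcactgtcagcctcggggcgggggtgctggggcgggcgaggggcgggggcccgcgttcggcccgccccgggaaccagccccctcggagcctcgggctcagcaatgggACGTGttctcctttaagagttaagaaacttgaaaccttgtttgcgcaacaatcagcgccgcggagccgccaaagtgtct

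The 4 motifs were searched on both strands. Of the core of the hypoxia response element only the form ACGTG was searched, so a window without it may hold another form. ACGTG was in the windows of Bmp4, Acvr1b and Smad6 and in none of those of Tgfb1, Acvr2a and Bmpr1b. In Bmp4 and Acvr1b it matched both strands at 1 place, as CACGTG. RefSeq gave 41 windows for 33 members, and ACGTG was in 8 of these windows, beside 16.6% of all 32817 promoter windows of the same length. The Smad-binding element CAGACA was in 6 of the 41 windows (17.1% of all windows), the GC-rich Smad1/5 element GGCGCC in 7 (9.59%) and the AP-1 element TGACTCA in 0 (4.46%). A match describes these letters only.

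No receptor for TGF-beta passed as deposited. Tgfbr2, the type II receptor that binds TGF-beta, was the most abundant receptor gene, at 6.64, 5.85, 3.49 and 3.28 FPKM after hypoxia and at 2.58, 9.57, 18.10 and 8.13 FPKM after normoxia. Normoxia libraries 6, 7 and 8 were above all hypoxia libraries and normoxia library 5 was below them all. The log2 change was -0.72 ± 0.62 (SE, adjusted p = 0.898 in limma). Tgfbr1, the type I receptor that signals with it, had the same order, with 2.20 to 4.90 FPKM after hypoxia, 1.78 FPKM in normoxia library 5 and 5.57 to 11.22 FPKM in the other normoxia libraries (adjusted p = 0.914 in limma). Tgfbr3, or betaglycan, a co-receptor that presents ligand, was at 2.27 to 4.87 FPKM after hypoxia and 1.13 to 3.14 FPKM after normoxia (log2 change 0.53 ± 0.50, SE).

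Normoxia library 5 was low for receptor genes in general. It was the lowest of the 8 libraries for 9 of the 10 tested receptors, for 14 of the 28 members and for 32.2% of all tested genes. The exception among the receptors was Acvrl1. The tested receptors had a median exon length of 6156 bases, against 3654 bases over all tested genes. The part of length in the low values of normoxia library 5 was not tested. In the test between the groups, after each library's trend with gene length was removed, 0 of 28 members passed in limma (1.09% of all tested genes did). At an unadjusted p under 0.05 in limma there were 3 (9.7% of all tested genes). A setting with TMM scaling and without this library, chosen with earlier results of these data known, is given beside the values as deposited.

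Under that setting, 4 members were lower and 1 was higher after hypoxia, where 4.15% and 4.38% of all tested genes were. Tgfb1 fell (log2 change -1.27 ± 0.21, SE, adjusted p = 0.0132 in limma), and so did Tgfbr2 (-0.92 ± 0.18, adjusted p = 0.022) and Bmp1 (-1.08 ± 0.25, adjusted p = 0.0368). The fourth was Acvr1, a type I receptor of the BMP branch (-0.79 ± 0.17, adjusted p = 0.0284). Bmp7 rose (0.80 ± 0.20, adjusted p = 0.049). Tgfbr1 missed the threshold narrowly (-0.77 ± 0.20, adjusted p = 0.0503).

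**Figure D3:**
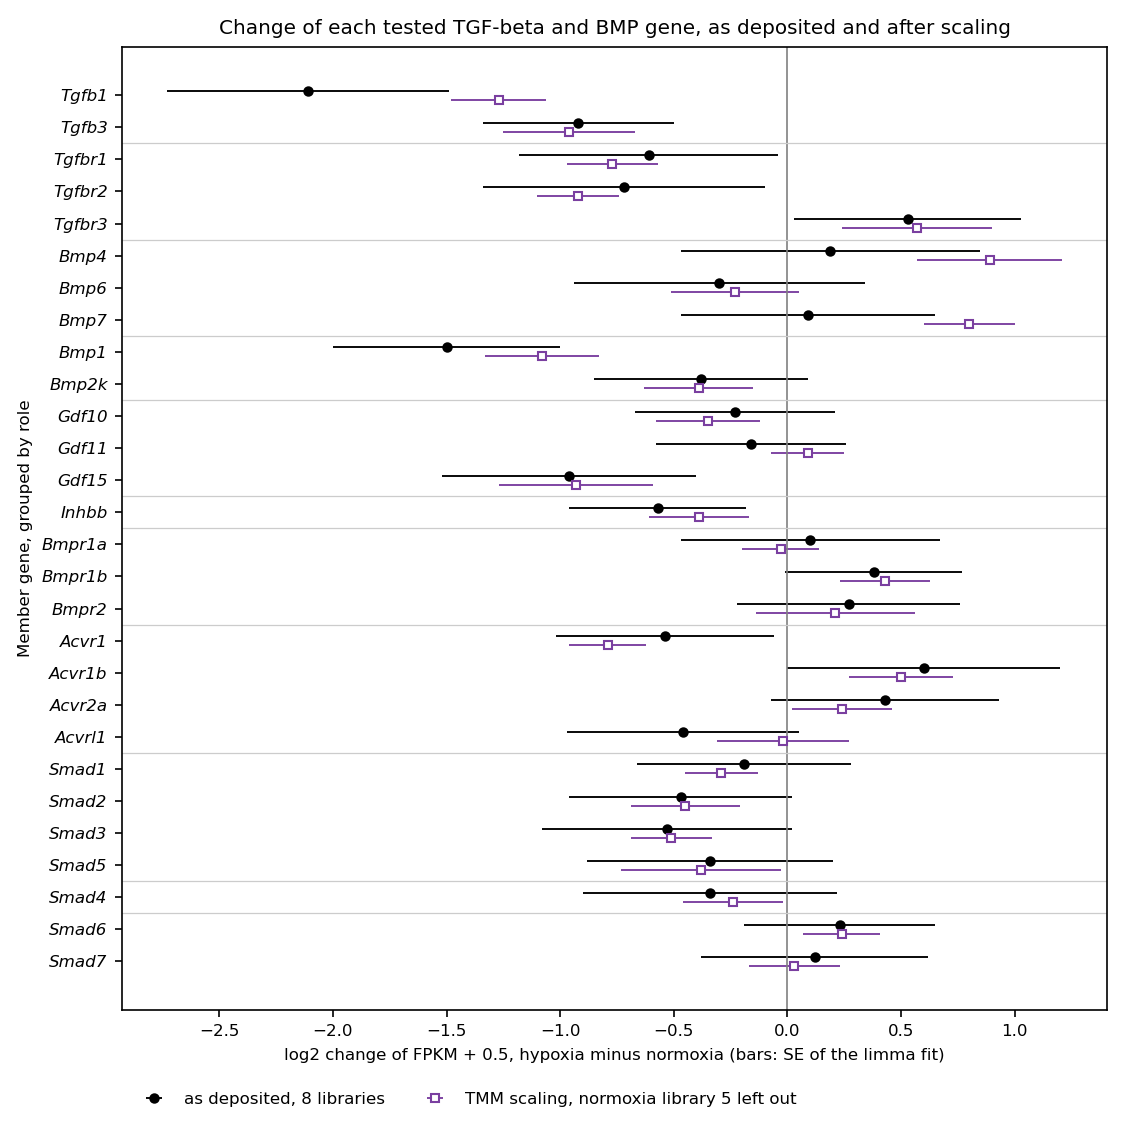
log2 change of FPKM + 0.5 (hypoxia minus normoxia) of the 28 tested members, with the SE of the limma fit, as deposited (filled circles) and with TMM scaling without normoxia library 5 (open squares). Tgfb1 has the lowest value in both, and Bmp7 moves from 0.09 to 0.80.

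The BMP ligands expressed above the filter were Bmp4, Bmp6 and Bmp7. Bmp6, known in the liver as the endothelial signal that controls iron through hepcidin, was the most abundant ligand on the FPKM scale, with a mean over all libraries of 8.57 FPKM. It was at 6.69, 16.33, 4.58 and 3.93 FPKM after hypoxia and at 5.13, 8.70, 16.80 and 6.43 FPKM after normoxia. The groups overlapped over most of their range and the change was -0.30 ± 0.64 (SE, adjusted p = 0.999 in limma). Bmp4, a ligand of ureter and stromal development, was at 8.19, 15.49, 3.96 and 4.35 FPKM after hypoxia and at 14.85, 5.69, 7.23 and 1.91 FPKM after normoxia, again overlapping (0.19 ± 0.66, SE). The next in order of mean level after Bmp6 were Bmp4 (7.71 FPKM) and Tgfb1 (7.69 FPKM), and these neighbours did not differ beyond their spread over libraries.

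Bmp7 was at 4.11, 4.67, 2.92 and 3.16 FPKM after hypoxia and at 9.16, 2.41, 4.17 and 1.29 FPKM after normoxia. The hypoxia libraries lay close together, and the normoxia libraries lay on both sides of them, with library 5 the highest. As deposited the change was 0.09 ± 0.56 (SE, adjusted p = 0.999 in limma), and its sign turned when hypoxia library 2 or normoxia library 6 or 8 was left out, with -0.29 as the lowest value. The call with TMM scaling rests on leaving out normoxia library 5. The other 6 BMP ligands in the table (Bmp2, Bmp3, Bmp5, Bmp8a, Bmp8b and Bmp15) were under the filter, with means of at most 0.339 FPKM.

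Bmp1 and Bmp2k carry BMP in their names without being ligands. Bmp1 encodes the procollagen C-proteinase, which trims fibrillar collagen and also releases TGF-beta from its latent store. It was at 1.18, 1.48, 0.42 and 0.36 FPKM after hypoxia and at 5.22, 1.89, 5.97 and 1.41 FPKM after normoxia. The groups touched only where hypoxia library 2 (1.48) exceeded normoxia library 8 (1.41). The log2 change was -1.50 ± 0.50 (SE) and did not pass (adjusted p = 0.187 in limma). It passed after scaling to protein-coding fragments (adjusted p = 0.0301) and with quantile normalization (adjusted p = 0.0435 in limma). Bmp2k, a kinase gene induced by BMP2, was at 1.68 to 2.25 FPKM after hypoxia and 1.29 to 3.76 FPKM after normoxia.

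Among the growth differentiation factors, Gdf15, a stress-induced cytokine, was at 3.90, 2.99, 0.73 and 0.82 FPKM after hypoxia and at 2.39, 3.84, 9.66 and 2.28 FPKM after normoxia. The change was -0.96 ± 0.56 (SE, adjusted p = 0.698 in limma), and the hypoxia values split by library pair. Gdf11, a ligand close to myostatin, and Gdf10, a divergent member of the family, had changes of -0.16 and -0.23. Gdf10 was at 0.18 FPKM in normoxia library 5 and 0.65 to 2.47 FPKM elsewhere. Inhbb, the subunit of activin B, was the 1 activin subunit tested, at 0.12 to 0.52 FPKM after hypoxia and 0.33 to 1.24 FPKM after normoxia (-0.57 ± 0.39, SE). Inhba, the subunit of activin A, had a mean of 0.201 FPKM and was listed at 0 in hypoxia library 3.

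The BMP receptors ranged from moderate to low levels. Bmpr1a, the broadly expressed BMP type I receptor, averaged 4.63 ± 1.57 and 4.78 ± 2.87 FPKM (SD, n = 4 each). Bmpr2, the BMP type II receptor, was at 2.23 to 3.12 FPKM in all hypoxia libraries and at 0.87 FPKM in normoxia library 5 and 2.69 to 3.10 FPKM in the others. Bmpr1b, a second BMP type I receptor, was low, with 0.37 to 0.96 and 0.21 to 0.82 FPKM. The 3 had positive changes between 0.10 and 0.38, and none passed.

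Acvr1b, the activin type I receptor that phosphorylates Smad2 and Smad3, was at 5.87, 11.95, 3.76 and 3.90 FPKM after hypoxia and at 1.38, 4.40, 8.57 and 2.90 FPKM after normoxia (0.60 ± 0.60, SE, adjusted p = 0.927 in limma). Acvr1 was at 1.15, 1.48, 0.54 and 0.53 FPKM after hypoxia and at 0.28, 1.79, 3.35 and 1.77 FPKM after normoxia. Normoxia library 5 alone brought the Acvr1 groups into overlap. Acvr2a, an activin type II receptor, was at 1.92 to 3.03 FPKM after hypoxia and 0.35 to 3.00 FPKM after normoxia. Acvrl1, the endothelial type I receptor for BMP9, was at 1.41 to 2.56 and 0.88 to 5.98 FPKM. Acvr2b and Acvr1c were under the filter.

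Of 8 Smad genes 7 were tested and none passed. Smad4 and Smad3 were the most abundant, with means over all libraries of 5.23 and 4.64 FPKM. Smad3 was at 4.37, 4.53, 2.42 and 2.83 FPKM after hypoxia and at 2.81, 4.71, 10.45 and 4.99 FPKM after normoxia (-0.53 ± 0.55, SE). The 4 tested receptor-regulated Smads had changes between -0.53 and -0.19, and the inhibitory Smad6 and Smad7 had changes of 0.23 and 0.12 (adjusted p = 0.999 each in limma). Smad7, which marks recent signalling because it is induced by both branches, averaged 2.52 ± 0.775 and 2.49 ± 1.34 FPKM (SD, n = 4 each). Normoxia library 7 was the highest library for all 7 tested Smads, for 20 of the 28 members and for 50.4% of all tested genes. It also had the largest share of fragments in protein-coding genes, 60.3%.

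Levels also differed between the pairs of hypoxia libraries. Hypoxia libraries 1 and 2 were both above hypoxia libraries 3 and 4 for 24 of the 28 members, and for 79.1% of all tested genes. After scaling to protein-coding fragments this held for 3 of the 28 and for 27.4% of all tested genes. The ratio of the highest to the lowest library, over the 27 tested members with no value of 0, had a median of 6.3 as deposited and of 5.93 after that scaling.

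Shares within a library do not depend on how libraries are scaled. Each tested ligand, type I or type II receptor and Smad was expressed as a percent of the summed FPKM of its class: 25 ligand genes, 7 type I receptors, 4 type II receptors or 8 Smads. This gave 25 shares, of which 6 had groups that did not overlap, and they are given as a description with no test. They rest on the same values as the changes above. For comparison, when every tested gene was divided by the same sums, the groups did not overlap for 15.9%, 12.9%, 11.4% and 13.9% of genes, in the order of the classes.

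Tgfb1 made up 8.83%, 5.01%, 9.24% and 6.82% of ligand FPKM in hypoxia libraries 1 to 4 and 48.2%, 17.0%, 19.7% and 17.8% in normoxia libraries 5 to 8. It was the 1 ligand with a lower share in every hypoxia library, where 1.92% of all tested genes were lower relative to the ligand sum. Bmp4, whose share is tied to that of Tgfb1 through the common sum, was at 26.8%, 33.4%, 24.1% and 27.2% after hypoxia and 21.8%, 17.8%, 11.8% and 9.57% after normoxia. Relative to the same sum 14% of all tested genes were higher without overlap, so 1 of 9 ligands is near the background. The ligand pool was led by Bmp4 or Bmp6 in all 4 hypoxia libraries. In normoxia it was led by Tgfb1 in library 5 and by Bmp6 in libraries 6, 7 and 8.

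Among type I receptors, Acvr1b took 29.0%, 44.4%, 32.1% and 31.2% after hypoxia and 15.2%, 23.2%, 22.3% and 18.1% after normoxia. Bmpr1b took 3.15% to 5.60% and 1.87% to 2.32%, again without overlap, which makes 2 of 6 type I receptors higher beside 6.3% of all tested genes. Tgfbr1 took 13.6% to 24.2% after hypoxia and 19.7% to 35.6% after normoxia, and these ranges overlapped through normoxia library 5. Among type II receptors, Acvr2a took 22.0% to 24.2% after hypoxia and 7.31% to 17.5% after normoxia (1 of 3 type II receptors higher beside 7.95% of all tested genes), while Tgfbr2 took 37.8% to 56.4% and 53.9% to 74.5% and overlapped. Among Smads, Smad6 took 4.31% to 6.45% after hypoxia and 2.76% to 3.78% after normoxia, and the other 6 overlapped. That is 1 of 7 Smads higher beside 10.2% of all tested genes. In its lowest library Bmpr1b rests on about 16 fragments and Smad6 on about 14.

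**Figure D4:**
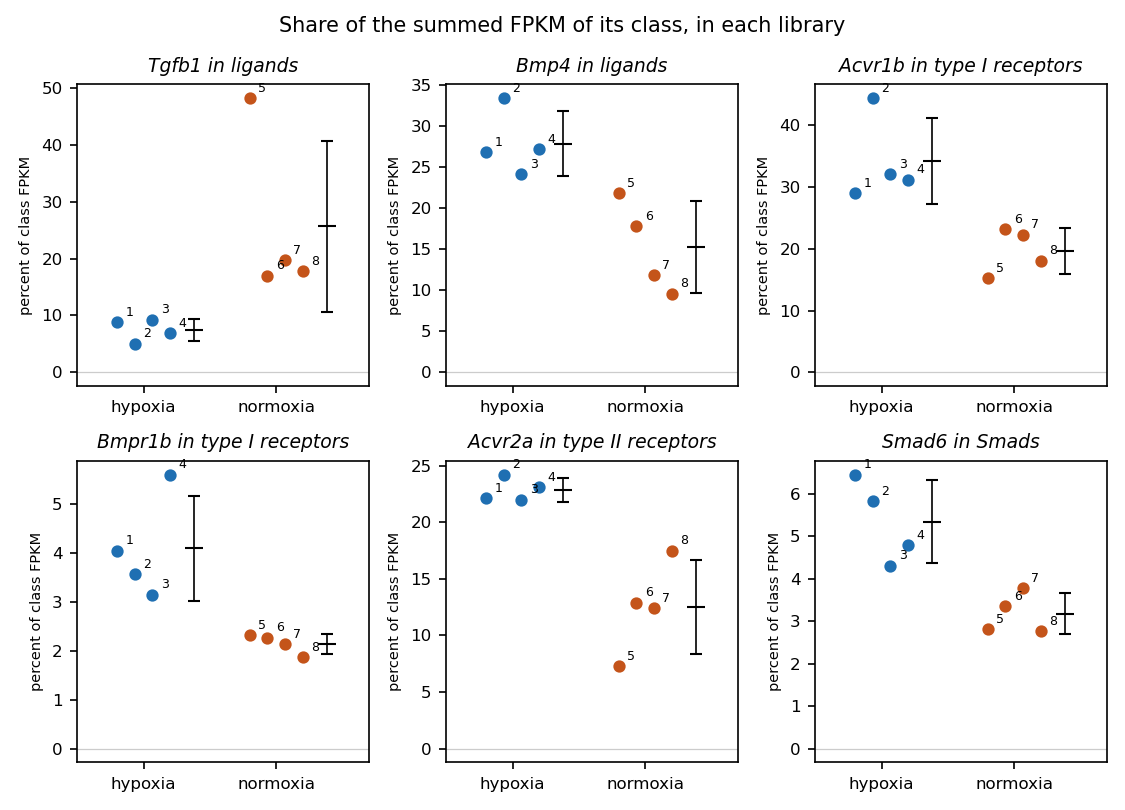
Percent of the summed FPKM of its class taken by each of the 6 members whose groups do not overlap, one numbered point per library, with the group mean and SD as a bar beside the points. Tgfb1 is below 10% of ligand FPKM in every hypoxia library and at 17.0% or more in every normoxia library, and the other 5 members have higher shares after hypoxia.

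The 20 listed genes known to be induced by TGF-beta were all tested, and all 20 had negative changes, with a median of -1.41 beside -0.14 over all tested genes. Negative changes were found for 8815 of all 14444 tested genes. The list was chosen with earlier results of these data known. It shares Skil and Pmepa1 with the intracellular regulators and Ltbp2 with the genes of latency and activation, which are described further on. Of the 20, 1 fell as deposited, where 0.602% of all tested genes were lower. In 8 of them all hypoxia libraries were below all normoxia libraries, against 3.06% of all tested genes. With TMM scaling and normoxia library 5 left out, 13 of the 20 fell (4.15% of all tested genes did).

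Col1a1, a chain of type I collagen, was at 12.05, 7.37, 5.26 and 5.0 FPKM after hypoxia and at 26.80, 34.29, 91.53 and 34.58 FPKM after normoxia (-2.48 ± 0.70, SE, adjusted p = 0.0882). It passed with TMM scaling (adjusted p = 0.0184 in limma). Ccn2, or connective tissue growth factor, overlapped, with 4.38 to 33.11 and 7.35 to 53.72 FPKM (-1.13 ± 0.76, SE, adjusted p = 0.788 in limma).

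Markers of other cells are given beside these values. Over all tested genes, 0.602% were lower as deposited and 6.84% at an unadjusted p under 0.05 in limma. With TMM scaling and normoxia library 5 left out, 4.15% of all tested genes were lower. Of 10 macrophage and monocyte markers 0 passed as deposited in limma and 8 were lower at an unadjusted p under 0.05, and with TMM scaling and normoxia library 5 left out 7 of the 10 fell. Their summed level was 22.3 to 109 FPKM after hypoxia and 131 to 827 FPKM after normoxia, highest in normoxia library 5, where Tgfb1 was also highest, and no marker was at 0 throughout. The summed T, B and NK cell markers, of which 1 of 10 was tested, were also highest there (9.69 FPKM, and 0.03 to 2.25 FPKM elsewhere). Of 3 tested neutrophil markers 3 were lower at an unadjusted p under 0.05 in limma and 0 passed. Their sum was highest in normoxia library 7 (71.4 FPKM). Of 9 tested fibroblast and pericyte markers 0 passed and 2 were lower at an unadjusted p under 0.05, while 2 fell under the TMM setting, with summed levels of 26.6 to 55.0 and 52.3 to 229 FPKM over the 10 listed. In both cases the 2 were Col1a1 and Col3a1, and the list shares these genes with the TGF-beta-induced genes. Of 12 tubular injury markers 5 fell as deposited and 9 with TMM scaling and normoxia library 5 left out. Endothelial markers summed to 42.7 to 106 and 31.1 to 100 FPKM, with 0 of 10 passing and 0 at an unadjusted p under 0.05. The part of these cells in the results for Tgfb1 and its induced genes was not tested.

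Genes induced by BMP had no common direction. Of 8 tested, 4 had positive and 4 negative changes, with a median of 0.02, and 0 passed in limma as deposited or at an unadjusted p under 0.05. The 8 include the members Smad6 and Smad7, already given above, whose changes of 0.23 and 0.12 are among the positive ones. Id1, a helix-loop-helix inhibitor and the standard readout of BMP signalling, was at 11.63, 21.07, 2.42 and 2.19 FPKM after hypoxia and at 5.03, 8.16, 20.88 and 4.06 FPKM after normoxia. The Id1 values followed the library pairs within hypoxia, and the change was -0.30 ± 0.72 (SE, adjusted p = 0.999 in limma). Id3, a close relative of Id1, had a change of -1.11 ± 0.78 (SE) and did not pass. Id4, a further member of that family, was at 6.70, 7.33, 1.94 and 2.15 FPKM and at 0.83, 1.99, 2.80 and 1.38 FPKM (1.04 ± 0.53, SE, adjusted p = 0.591). It rose with TMM scaling without normoxia library 5 (1.05, adjusted p = 0.0412 in limma).

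Of 11 tested extracellular antagonists 1 rose and 0 fell, where 0.305% of all tested genes rose, and the list median was -0.19. Sostdc1, a BMP antagonist of the distal nephron named here after its values were seen, was at 31.49, 34.83, 15.28 and 15.85 FPKM and at 3.31, 5.97, 17.02 and 4.23 FPKM (1.79 ± 0.69, SE, adjusted p = 0.308). With TMM scaling over all 8 libraries 2 of the 11 antagonists rose and 1 fell, beside 1.18% and 1.2% of all tested genes. Sostdc1 was among those that rose (adjusted p = 0.024 in limma). Fst, or follistatin, which binds activin, was at 0.37 to 2.31 and 0.17 to 1.25 FPKM and did not pass (0.58 ± 0.48, SE).

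The level of Sostdc1 can be set beside the markers of the segments after the proximal tubule. As deposited, where 0.305% of all tested genes rose, 3 of 8 thick ascending limb markers rose. So did 2 of 8 distal convoluted and connecting tubule markers and 1 of 11 collecting duct markers. With TMM scaling over all 8 libraries, where Sostdc1 rose, these counts were 5, 2 and 2, beside 1.18% of all tested genes. The summed collecting duct markers were at 89.1 to 288 FPKM after hypoxia and 36.4 to 141 FPKM after normoxia, and no marker of these 3 lists was at 0 throughout. Their part in the values of Sostdc1 was not tested.

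**Figure D5:**
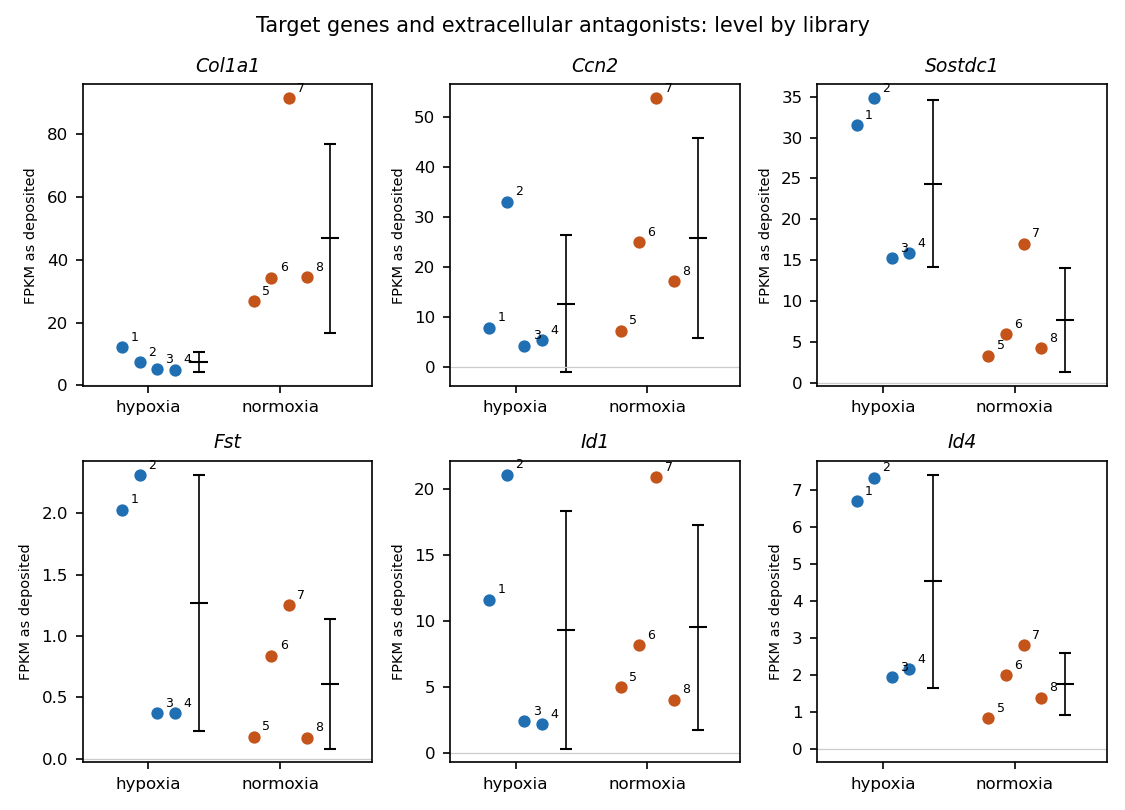
FPKM as deposited of the TGF-beta-induced genes Col1a1 and Ccn2, the antagonists Sostdc1 and Fst and the BMP-induced genes Id1 and Id4, one numbered point per library, with the group mean and SD as a bar beside the points. Col1a1 has groups that do not overlap, and hypoxia libraries 3 and 4 are the lowest of all for Id1.

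Of 15 genes of TGF-beta latency and activation 0 passed in limma as deposited, and the median was -0.47. At an unadjusted p under 0.05 in limma 3 were lower, beside 6.84% of all tested genes. The 2 with the smallest p were Ltbp2, a latent TGF-beta binding protein relative (0.03 to 0.23 against 0.37 to 1.35 FPKM, -1.16 ± 0.38, SE, adjusted p = 0.186), and Fbn1, or fibrillin 1, which anchors latent complexes (1.10 to 1.57 against 2.13 to 6.81 FPKM, -1.30 ± 0.48, adjusted p = 0.273 in limma). With TMM scaling and normoxia library 5 left out, 2 of the 15 latency and activation genes fell, beside 4.15% of all tested genes. Fbn1 was 1 of these (-1.30, adjusted p = 0.0105 in limma). As deposited, the groups did not overlap, hypoxia lower, for 3 of the 15 and for 3.06% of all tested genes. Of 19 intracellular regulators 0 passed and 0 reached an unadjusted p under 0.05 in limma, with a median of -0.09. Pmepa1, a feedback inhibitor of Smad2 and Smad3, and Fkbp1a, which holds type I receptors inactive, had the smallest p (changes -1.15 and -1.01, adjusted p = 0.627 and 0.705). Of 5 co-receptors and other ligands 0 passed and 0 reached an unadjusted p under 0.05 in limma. Among them Eng, the endothelial co-receptor endoglin, was at 8.89 to 15.13 and 7.36 to 38.62 FPKM, and Inha, the inhibin alpha subunit, had a change of -0.60 ± 0.44 (SE).

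Of the 47 members 19 were under the filter and none of them exceeded 0.99 FPKM in any library. They were 1 TGF-beta ligand, 6 BMP ligands, 6 growth differentiation factors (Gdf1, Gdf3, Gdf5, Gdf6, Gdf7 and Gdf9), 3 activin subunits (Inhba, Inhbc and Inhbe), Acvr1c, Acvr2b and Smad9. In all, 16 members were listed at 0 in at least 1 library, and none in all 8. Bmp8a and Bmp8b are near-identical copies, and Gdf1 shares its transcript with Cers1, so their values are uncertain. On GRCm38 in the GENCODE M21 annotation, Tgfb1 (ENSMUSG00000002603) lies at chr7:25687002-25705077 on the plus strand, Bmp1 (ENSMUSG00000022098) at chr14:70474558-70520234, Tgfbr2 (ENSMUSG00000032440) at chr9:116084293-116175360 and Bmp7 (ENSMUSG00000008999) at chr2:172868012-172940321, the last 3 on the minus strand.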

How the data were processed

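Poly(A) RNA of 8 kidneys was sequenced from stranded libraries, per the labels' protocols. HISAT2, StringTie and edgeR are named without versions or roles, per the submitters' processing notes, and neither build nor strand setting is given in the sources used here. The authors deposited FPKM per gene and library, with no recorded scaling between libraries. All 34450 identifiers matched GENCODE M21 (GRCm38). Promoter sequences are from RefSeq (GRCm38.p6).

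FPKM was tested as log2(FPKM + 0.5), unscaled, in genes with a mean of at least 0.5, with limma 3.58.1 in R 4.3.3 (eBayes with trend, two-sided) and a Benjamini-Hochberg adjusted p under 0.05 over all 14444 tested genes. On that log scale the change of a low gene is understated. The step was run on simulated data with noise drawn independently for each gene. Effects shared by many genes of a library were not simulated, so that run does not show how the step handles them. Members and gene lists were chosen with earlier results of these data known. Values in every library are given for members that passed as deposited or with TMM scaling, whose groups did not overlap, or that were the most abundant ligand or receptor, and for a few further members of each role chosen afterwards. Of each list up to 4 called genes, or the 2 with the smallest p, and Ccn2, Col1a1, Id1 and Fst were named; some genes counted in the lists are not reported here one by one. TMM factors were computed from the published formula as a scaling only, since FPKM are not counts. Depth was inferred from the steps between low values in single-exon genes and has no interval. Scaling to protein-coding fragments was chosen after seeing the data.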

Additional observations from a re-analysis of the deposited data

How the results depend on the processing

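The counts of members passing as deposited (0 higher, 0 lower in limma) became 1 higher and 4 lower with TMM scaling without normoxia library 5, and 2 lower with quantile normalization and with scaling to protein-coding fragments. With single libraries left out, 0 were higher and 0 to 1 lower, the 1 being Tgfb1 without normoxia library 8. The counts over all genes (44 higher, 87 lower) became 170 and 173 with TMM scaling, 633 and 599 with TMM scaling without normoxia library 5, 280 and 349 with quantile normalization, and 148 and 228 with scaling to protein-coding fragments. They were 0 and 0 in limma without the filter (30982 tested, with 665 and 1356 at an unadjusted p under 0.05), and 47 were lower with a pseudocount of 1. With single libraries left out they ran from 11 to 66 higher and from 5 to 226 lower, the lowest of both without normoxia library 7. TMM scaling moved the median change of all genes from -0.14 to 0.03.

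With TMM scaling without normoxia library 5, Bmpr1a turned to -0.03 and Gdf11 to 0.09. Signs also turned in some of the fits with 1 library left out, where log2 changes ran from -0.29 to 0.61 for Bmp4, -0.70 to 0.02 for Bmp6, -0.29 to 0.52 for Bmp7, -0.31 to 0.42 for Bmpr1a, -0.06 to 0.41 for Bmpr2, -0.60 to 0.11 for Gdf10, -0.31 to 0.02 for Gdf11, -0.86 to 0.16 for Id1, -0.51 to 0.12 for Smad1, -0.67 to 0.01 for Smad5 and -0.23 to 0.36 for Smad7. The cause was not tested. No paired analysis was possible because the titles number the hypoxia libraries 1 to 4 and the normoxia libraries 5 to 8, so the groups share no number. Members near the filter rest on few fragments (about 4 for Inhbb in its lowest library), so a 0 does not show absence.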
